A study of Mus musculus with 6 samples.

Results

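The platelet-derived growth factor (PDGF) family was followed through its 6 genes in the table, 4 ligands (Pdgfa, Pdgfb, Pdgfc and Pdgfd) and 2 receptors (Pdgfra and Pdgfrb), taken by gene symbol from 14549 genes. RNA came from the epicardium, the outer cell layer of the heart, dissected with the subepicardium below it from mouse embryos at E16.5, late in gestation. The 3 control libraries are labelled Wild-type. The 3 dKO libraries came from Meis1fl/fl;Meis2fl/fl;WT1-Cre embryos, in which the Cre recombinase is driven by Wt1, a gene of the epicardium, and removes the homeodomain transcription factor genes Meis1 and Meis2 from cells that have had Cre activity. Every library pooled 2 hearts, which leaves the variation from heart to heart unmeasured. Library numbers are those of the titles. The labels do not state whether Cre was present in the controls.

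PDGF ligands are secreted disulphide-linked dimers that bind receptor tyrosine kinases of class III and make them pair and phosphorylate one another. The alpha receptor, encoded by Pdgfra, binds the A, B and C chains, and the beta receptor, encoded by Pdgfrb, binds the B and D chains. In the developing heart Pdgfra marks cells on the way from epicardium to fibroblasts, Pdgfrb marks pericytes and smooth muscle cells, and endothelial cells release PDGF-B to recruit these mural cells.

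Libraries held 13146322 to 20635676 recovered reads, so even the least abundant member, Pdgfc, rested on 35 to 206 reads per library. Mitochondrially encoded genes took 5.99% to 10.4% of the signal in controls and 11.3% to 19.9% in dKO libraries. The highest share was in dKO 1, which also had the highest Pdgfa, Pdgfb and Pdgfrb, and its part in those values was not tested. Meis2 fell from 78.3 ± 13.0 to 41.3 ± 5.59 (SD, n = 3), and Meis1 was 77.8 ± 24.8 in controls and 65.9 ± 7.82 in dKO libraries (limma adjusted p = 0.521). These values cover all exons and do not measure the deleted part. Ddx3y and Xist, which tell male from female pools, showed that sex was not balanced between the genotypes. Ddx3y was at 84.0 in control 4, 67.4 in dKO 1 and 63.9 in dKO 2, and at most 0.0731 in the other libraries. Xist was high in those others instead, at 918 in control 1, 610 in control 2 and 1049 in dKO 3. Epicardial and mesothelial markers were present in the controls and lower in the dKO libraries for 15 of 16 listed genes, with a summed level of 2796 to 4235 against 563 to 694. Cardiomyocyte genes, which a clean epicardial dissection would hold little of, rose for 19 of 20, with a summed level of 7235 to 15919 in controls and 37452 to 40415 in dKO libraries, control 1 being the lowest. Beside these lists, 12.2% of all genes fell and 9.81% rose by limma. Since the tissue was sequenced in bulk, fewer cells of a type and less RNA per cell cannot be told apart.

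The receptors and the ligands each split. Among the receptors Pdgfra fell to 54.0% and Pdgfrb rose to 167% of the control mean, and among the ligands Pdgfd fell to 44.9% and Pdgfb rose to 171%. Pdgfa and Pdgfc did not pass the test. Thus 2 members rose and 2 fell, against 9.81% and 12.2% of all 14549 genes (22.0% in either direction) by limma with Benjamini-Hochberg adjustment over all genes, at a threshold of 0.05. By edgeR on the recovered reads the same 2 rose and 2 fell, beside 8.96% and 11.4% of all genes. The groups did not overlap for these 4 members, 2 with the dKO libraries above and 2 with the controls above, beside 19.3% and 21.1% of all genes (40.4% in all). With 1 of 2 receptors and 1 of 4 ligands called in each direction, neither class moved as a whole. The median log2 change was -0.08 for the 2 receptors, 0.41 for the 4 ligands and 0.0016 for all genes.

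**Figure D1:**
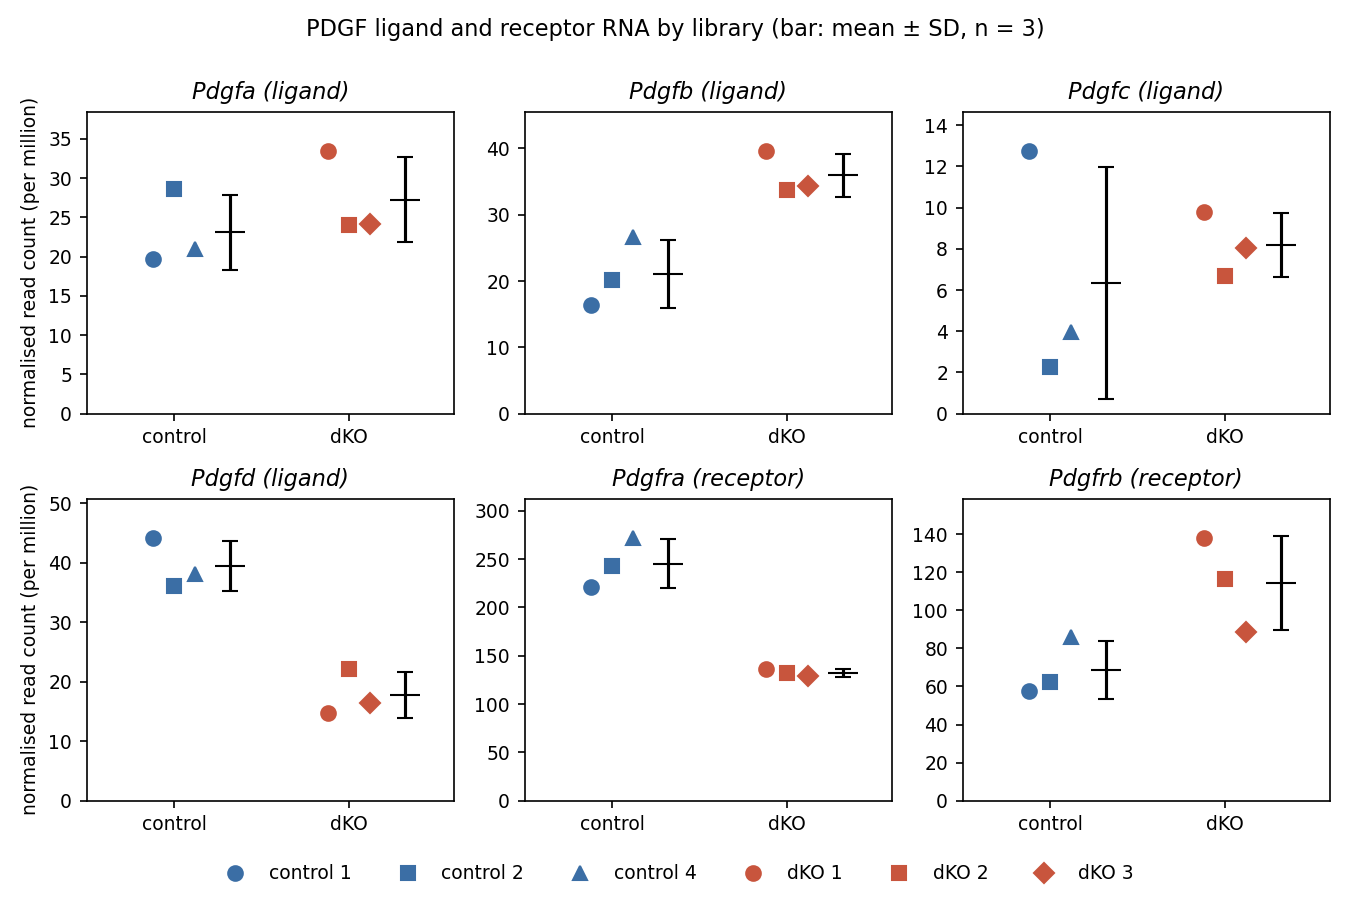
Normalised read counts (y axis, from 0) of the 6 PDGF genes in the 3 control and 3 dKO libraries, with the mean ± SD (n = 3) as a bar beside each group. Control and dKO libraries do not overlap for Pdgfb, Pdgfd, Pdgfra and Pdgfrb, and they overlap for Pdgfa and Pdgfc.

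Pdgfra (ENSMUSG00000029231, GRCm38 chromosome 5, 75152292 to 75198215, plus strand), the receptor of the A, B and C chains, had a normalised read count of 221 in control 1, 243 in control 2 and 272 in control 4, and of 137 in dKO 1, 132 in dKO 2 and 129 in dKO 3. All 3 dKO libraries lay well below the lowest control, and they differed little from one another. The means were 245 ± 25.7 and 132 ± 4.0 (SD, n = 3), a log2 change of -0.88 (SE 0.12, limma adjusted p = 7.36e-04). An exact two-sided permutation test gave p = 0.1, the smallest that 3 against 3 libraries allow, and it was the same for Pdgfb, Pdgfd and Pdgfrb. Other genes share 6.5% of the exonic bases of Pdgfra, and since the library kit is not stated to keep strand, reads there can belong to either gene.

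Pdgfd (ENSMUSG00000032006, chromosome 9, 6168584 to 6378850, plus strand) encodes a ligand of the beta receptor that is secreted in a latent form. Its normalised read count was 44.2 in control 1, 36.0 in control 2 and 38.1 in control 4, and 14.7 in dKO 1, 22.1 in dKO 2 and 16.4 in dKO 3. Every dKO library was below every control, with dKO 2 the nearest to them. The means were 39.4 ± 4.23 and 17.7 ± 3.87 (SD, n = 3), a log2 change of -1.13 (SE 0.18, limma adjusted p = 0.00204). The call was lost with a marker score as a covariate. The change was -0.64 for the cardiomyocyte list (SE 0.43, limma adjusted p = 0.616) and -1.19 for the pericyte list (limma adjusted p = 0.0555). It was -1.02 for the fibroblast and matrix list (limma adjusted p = 0.980), a fit in which 0 of the 14549 genes passed. The cardiomyocyte and fibroblast scores did not overlap between the genotypes, so those fits can hardly tell genotype from score. Over all alternatives the adjusted p ran from 2.1e-06 to 0.980.

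Because the members that fell, Pdgfra and Pdgfd, were measured in embryos with transcription factor genes deleted, the bases before one of the RefSeq transcript starts of each are shown (RefSeq, GRCm38.p6), beside those of Pdgfc, a ligand that did not pass the test. They were searched on both strands for TGACAG, the hexamer that MEIS proteins are known to bind, and for the CArG box, the site of serum response factor. These motifs do not overlap in the windows, and capitals mark each match. The first 2 sequences are printed to the end of the hexamer.
Pdgfra, chr5:75152001-75152253, plus strand: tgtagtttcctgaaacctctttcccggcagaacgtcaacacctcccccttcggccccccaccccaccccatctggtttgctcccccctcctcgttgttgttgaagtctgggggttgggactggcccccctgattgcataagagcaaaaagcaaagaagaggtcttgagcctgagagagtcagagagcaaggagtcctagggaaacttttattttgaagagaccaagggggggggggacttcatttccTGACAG
Pdgfd, chr9:6168236-6168385, plus strand: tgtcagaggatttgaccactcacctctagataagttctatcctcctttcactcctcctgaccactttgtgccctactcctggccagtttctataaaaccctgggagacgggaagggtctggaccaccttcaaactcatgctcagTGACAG
Pdgfc, chr3:81036166-81036415, plus strand: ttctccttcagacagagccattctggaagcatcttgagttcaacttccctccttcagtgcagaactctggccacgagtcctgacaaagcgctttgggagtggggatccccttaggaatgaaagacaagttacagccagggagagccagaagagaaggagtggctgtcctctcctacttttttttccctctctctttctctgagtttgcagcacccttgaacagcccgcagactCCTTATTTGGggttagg

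Windows were matched for 4 of the 6 members (5 windows, 2 of them for Pdgfa). None was available for Pdgfb and Pdgfrb, the 2 members that rose, so these were not searched. TGACAG stood once in the Pdgfra window, spanning the transcript start from -3 to 3, and once in the Pdgfd window, from -106 to -101, both on the plus strand. Neither Pdgfa window nor that of Pdgfc held it. The CArG box stood in the Pdgfc window from -17 to -8. Among all 32851 windows of 300 bases in the RefSeq set, 19.2% held TGACAG and 1.63% a CArG box, so the hexamer is common. These matches describe letters only, and no binding was measured here. The Pdgfa windows were richer in G and C (67.0% and 73.3%) than those of Pdgfra (51.0%), Pdgfc (55.0%) and Pdgfd (56.7%).

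Pdgfrb (ENSMUSG00000024620, chromosome 18, 61045150 to 61085061, plus strand), the receptor of the B and D chains, moved the other way from Pdgfra. Its normalised read count was 57.6 in control 1, 62.3 in control 2 and 86.0 in control 4, and 138 in dKO 1, 116 in dKO 2 and 88.7 in dKO 3. The groups did not overlap, but dKO 3 lay only just above control 4. The means were 68.6 ± 15.2 and 114 ± 24.7 (SD, n = 3), a log2 change of 0.73 (SE 0.19, limma adjusted p = 0.022). The call was lost without control 2 (limma adjusted p = 0.0714), without dKO 1 (0.0735), without dKO 2 (0.0710), after removing both control 1 and dKO 1 (0.0828) and with no variance trend (limma adjusted p = 0.0658). With the mean of the cardiomyocyte list as a covariate the change was 0.046 (SE 0.40, limma adjusted p = 0.983). Over all its alternatives the adjusted p ran from 0.0039 to 0.983, and the direction stayed upward in each.

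Pdgfb (ENSMUSG00000000489, chromosome 15, 79995874 to 80014977, minus strand) encodes the B chain, which binds both receptors and is held near its source by heparan sulphate. Its normalised read count was 16.4 in control 1, 20.1 in control 2 and 26.6 in control 4, and 39.6 in dKO 1, 33.8 in dKO 2 and 34.4 in dKO 3. All dKO libraries were above all controls, and the spread was wider among the controls. The means were 21.0 ± 5.15 and 35.9 ± 3.22 (SD, n = 3), a log2 change of 0.77 (SE 0.19, limma adjusted p = 0.016). Without dKO 1 the change was 0.70 (limma adjusted p = 0.0520), and after removing both control 1 and dKO 1 it was 0.54 (limma adjusted p = 0.0557). With the mean of the cardiomyocyte list as a covariate the change was -0.034 (SE 0.39, limma adjusted p = 0.986), so its direction was not resolved. The call was also lost with the pericyte list (0.62, limma adjusted p = 0.314) and the fibroblast and matrix list (0.58, limma adjusted p = 0.981). In the fibroblast fit 0 of the 14549 genes passed. The cardiomyocyte and fibroblast scores did not overlap between the genotypes, so those fits can hardly tell genotype from score. The lowest adjusted p over all its alternatives was 0.0040.

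Pdgfa (ENSMUSG00000025856, chromosome 5, 138976014 to 138997370, minus strand), a ligand of the alpha receptor, stood at 19.7 in control 1, 28.6 in control 2 and 20.9 in control 4, and at 33.5 in dKO 1 and 24.1 in both dKO 2 and dKO 3. Control 2 was higher than dKO 2 and dKO 3, so the groups overlapped. The log2 change was 0.23, with a 95% interval of -0.21 to 0.67 (limma adjusted p = 0.453). Its exons share 26.1% of their bases with the gene 6330403L08Rik, so part of its reads may not be its own.

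Pdgfc (ENSMUSG00000028019, chromosome 3, 81036416 to 81214040, plus strand) encodes a latent ligand of the alpha receptor. Its normalised read count was 12.8 in control 1, 2.27 in control 2 and 3.97 in control 4, and 9.79 in dKO 1, 6.69 in dKO 2 and 8.06 in dKO 3. Control 1 was the highest of all 6 libraries, while the other controls were the lowest. The log2 change was 0.58, with a 95% interval of -0.42 to 1.59 (limma adjusted p = 0.396). Without control 1 it was 1.18 (limma adjusted p = 0.0217), and after removing both control 1 and dKO 1 it was 1.05 (limma adjusted p = 0.0346), against an adjusted p of up to 0.880 over its alternatives. With the cardiomyocyte list as a covariate it was 3.03 (limma adjusted p = 0.0800), and with the fibroblast and matrix list 4.89 (limma adjusted p = 0.880). Control 1 also stood apart in Hoxa5, a homeobox gene (40.6 against 1.76 and 2.76 in control 2 and 4), and the part of that difference in the Pdgfc values was not tested.

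**Figure D2:**
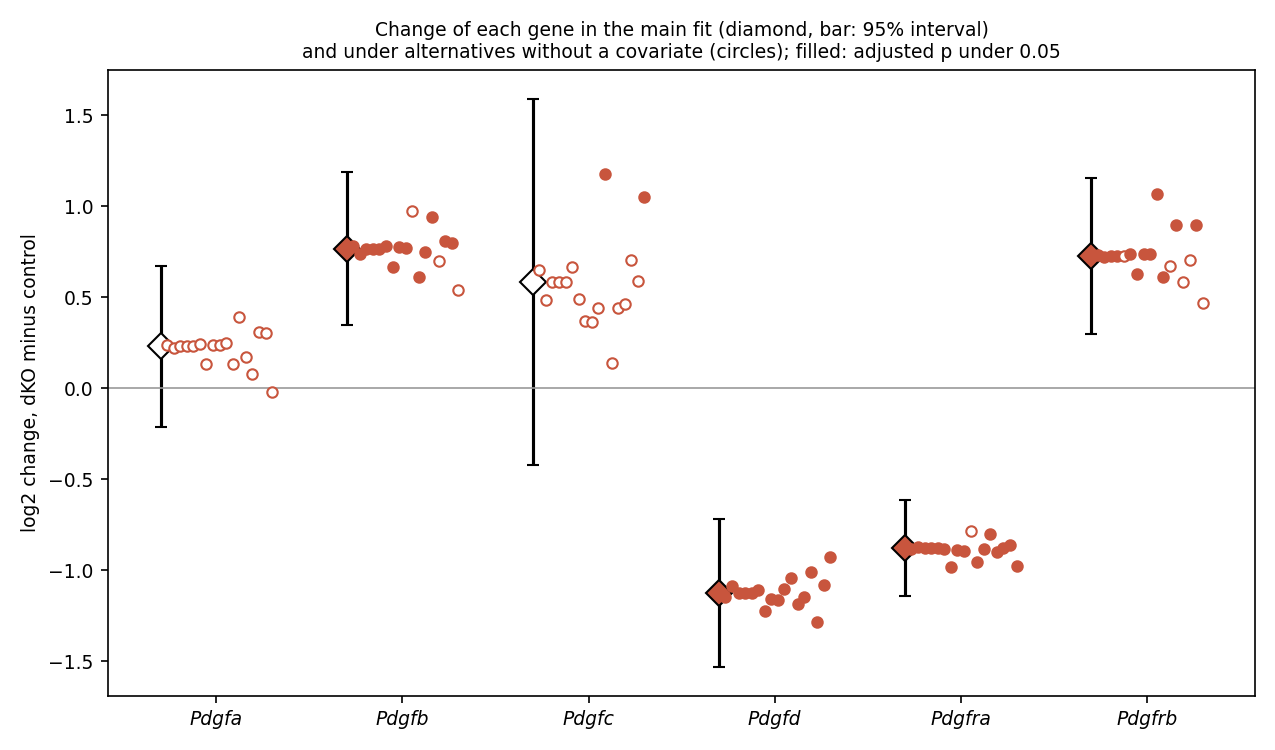
Log2 change (y axis, dKO minus control) of each PDGF gene in the reported fit (diamond, with its 95% interval) and under the alternatives that add no covariate (circles), filled where the adjusted p was under 0.05. Pdgfd and Pdgfra stay near -1.13 and -0.88, and Pdgfra loses the call with the replicate block (-0.78). Pdgfb and Pdgfrb stay above 0 but lose the call in some fits, and Pdgfc ranges from 0.14 to 1.18.

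To set the genes beside one another, levels were taken per kilobase of merged exon, which keeps long transcripts from appearing more abundant. In controls the order was Pdgfra (24.5 ± 2.56 normalised reads per kilobase), Pdgfrb (12.5 ± 2.78), Pdgfd (12.5 ± 1.34), Pdgfa (7.40 ± 1.55), Pdgfb (5.06 ± 1.24) and Pdgfc (1.24 ± 1.11), each with n = 3. The ranges of Pdgfrb and Pdgfd overlapped, and Pdgfrb was the higher in 1 of 3 controls. Those of Pdgfa and Pdgfb overlapped too, but Pdgfa was the higher in all 3 controls. In dKO libraries the order was Pdgfrb (20.9 ± 4.51), Pdgfra (13.2 ± 0.399), Pdgfa (8.73 ± 1.73), Pdgfb (8.63 ± 0.775), Pdgfd (5.62 ± 1.23) and Pdgfc (1.61 ± 0.305). There only Pdgfa and Pdgfb had overlapping ranges among neighbours, with Pdgfa the higher in 1 of 3 libraries. Pdgfd went from the most abundant ligand to the third of the 4.

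Per kilobase of merged exon, the summed levels overlapped between the groups while their make-up changed. The receptor total per kilobase was 32.5 in control 1, 35.6 in control 2 and 42.8 in control 4, and 38.8 in dKO 1, 34.4 in dKO 2 and 29.1 in dKO 3, so the groups overlapped. With no length correction all 3 controls (278 to 358) were above the dKO libraries (218 to 275). Pdgfra made up 63.3% to 68.1% of the total per kilobase in controls, and 35.1% in dKO 1, 38.2% in dKO 2 and 44.2% in dKO 3. Its share was thus lower in each dKO library than in any control. The ratio of Pdgfra to Pdgfrb was 1.99 ± 0.224 in controls and 0.651 ± 0.129 in dKO libraries (SD, n = 3). Which receptor was the higher in dKO libraries depends on the length used. With the longest coding transcript the ratio was 2.88 and 0.946, and with no length correction 3.63 and 1.19, but it was lower in all dKO libraries on each scale.

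Among the ligands the total per kilobase was 26.8 in control 1, 25.9 in control 2 and 26.0 in control 4, and 26.8 in dKO 1, 24.2 in dKO 2 and 22.8 in dKO 3, again with overlap. Pdgfd supplied 44.1% to 52.3% of it in controls, and 17.4% in dKO 1, 29.0% in dKO 2 and 22.8% in dKO 3. Pdgfb supplied 14.7% in control 1, 18.7% in control 2 and 24.6% in control 4, and 33.6% to 36.3% in dKO libraries. Between the ligands of the beta receptor the ratio of Pdgfb to Pdgfd was therefore 0.411 ± 0.124 in controls and 1.6 ± 0.442 in dKO libraries (SD, n = 3), without overlap. The shares of Pdgfa (23.6% to 35.5% in controls, 32% to 40.0% in dKO libraries) and Pdgfc (1.72% to 9.36% and 5.45% to 7.17%) overlapped. The ratio of the receptor total to the ligand total was 1.41 ± 0.22 in controls and 1.38 ± 0.093 in dKO libraries (SD, n = 3), with overlap. On the other scales it was lower in all dKO libraries than in any control. It was 1.48 and 1.21 with the longest coding transcript, and 3.50 and 2.77 with no length correction. No test was made on these sums and ratios, since the members were chosen with results of these data known.

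**Figure D3:**
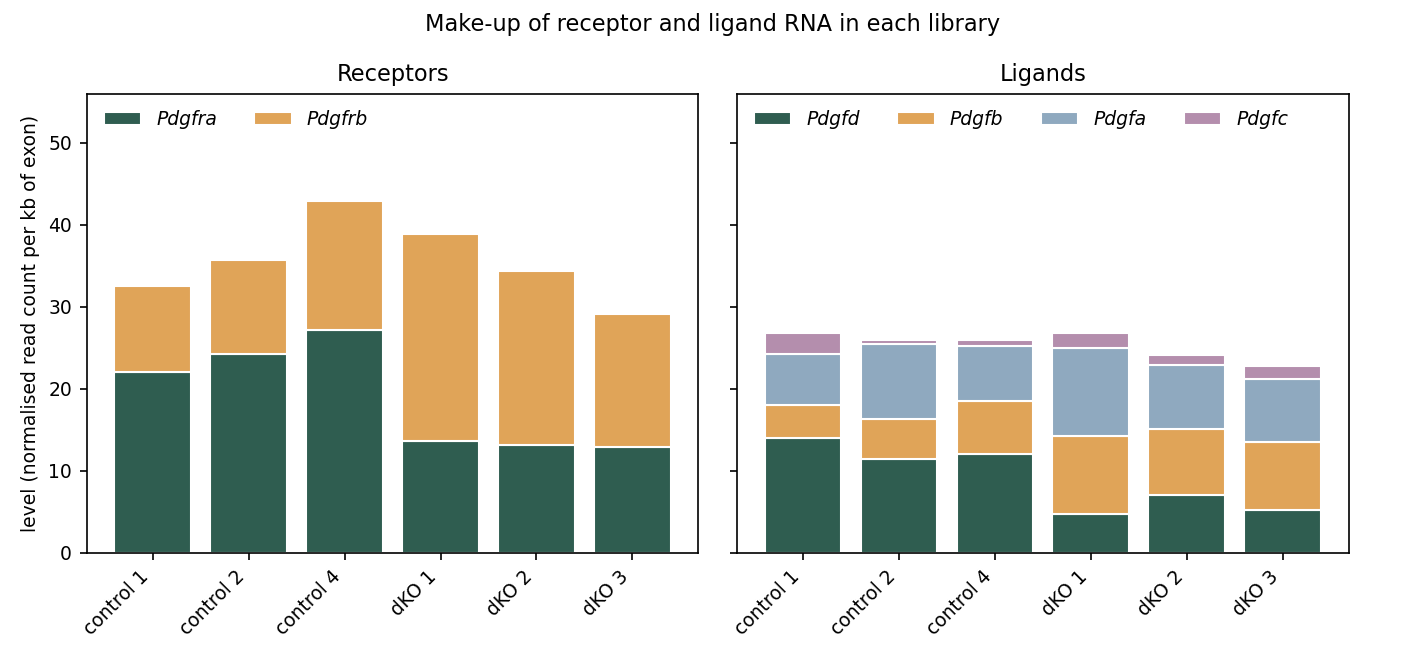
Level per kilobase of merged exon (y axis, normalised read count per kb) of the 2 receptors (left) and the 4 ligands (right), stacked in each of the 6 libraries. Pdgfra holds 63.3% to 68.1% of the receptor total in controls and 35.1% to 44.2% in dKO libraries, while the height of the stacks overlaps between the groups.

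Markers of the cells that carry these genes moved too, and their part in the PDGF results was not tested except where a fit is given. For Pdgfra, 10 of 15 fibroblast and matrix genes fell and 0 rose, beside 12.2% and 9.81% of all genes. Their median log2 change was -1.52, and their summed level 31103 to 36111 in controls and 14106 to 17409 in dKO libraries. Lox, whose product cross-links collagen, fell from 859.8 to 186, as did the matrix genes Fbln2 (416 to 85.2) and Lum (465 to 144), and Pcolce (194 to 64.8), which enhances procollagen processing. Periostin (Postn, 1868 to 2502) did not pass. The lowest group mean of a gene was 4.70 in this list and 2.06 in the epicardial list. With the mean of the fibroblast and matrix list as a covariate the Pdgfra change was -1.01 (SE 0.55), and 0 of the 14549 genes passed in that fit.

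For Pdgfrb, 5 of 9 pericyte genes rose and 1 fell (median 0.80, summed level 694 to 765 in controls and 1105 to 1215 in dKO libraries). Of 7 smooth muscle genes 4 rose and 0 fell (median 1.37, 408 to 763 and 1397 to 1706). Beside both lists stand 9.81% and 12.2% of all genes. Rgs5, a regulator of G-protein signalling that marks pericytes, rose from 169.7 to 339.5, the potassium channel subunit Abcc9 from 138 to 328 and the proteoglycan Cspg4 from 19.1 to 50.5. The aminopeptidase Anpep, which other stromal cells also make, fell from 122 to 11.3. Among smooth muscle genes Acta2 rose from 431 to 1118, Cnn1 from 12.9 to 46.6, Des from 84.8 to 213 and the coactivator Myocd from 12.3 to 43.9. Of these, cardiomyocytes also express Des, Myocd and, before birth, Acta2. Tagln (55.1 and 67.2), Smtn (33.6 and 34.5) and Myh11 (7.06 and 3.49, with 18.0 in control 1) did not pass. The lowest group mean of a gene was 1.55 in the pericyte list and 3.49 in the smooth muscle list, of which Lmod1 was not measured. With the mean of the pericyte list as a covariate the Pdgfrb change was 0.27 (SE 0.24, limma adjusted p = 0.611), while that of Pdgfra was -0.96 (limma adjusted p = 0.0268).

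For Pdgfb, 1 of 13 pan-endothelial genes passed, Tek, which fell, beside 22.0% of all genes in either direction. The list had a median of 0.21 and a summed level of 1196 to 1840 in controls and 1462 to 1627 in dKO libraries. Of 9 arterial genes 5 rose and 0 fell (median 1.08, summed level 183 to 210 and 330 to 365), beside 9.81% and 12.2% of all genes. These were the chemokine receptor Cxcr4 (4.31 to 34.7), the Notch ligand Dll4 (7.42 to 25.7), its target Hey1 (6.89 to 20.3), the netrin receptor Unc5b (53.0 to 113) and the connexin Gja5 (9.88 to 38.8), which atrial and conducting muscle also makes. Efnb2 (76.4 and 80.3), Jag1 (23.6 and 21.5), Sox17 (8.57 and 11.8) and Gja4 (3.75 and 6.36) did not pass. The lowest group mean of a gene was 4.73 in the endothelial list and 3.75 in the arterial list. Pdgfb did not overlap between the genotypes, nor did the summed arterial markers, whereas the summed endothelial markers overlapped.

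**Figure D4:**
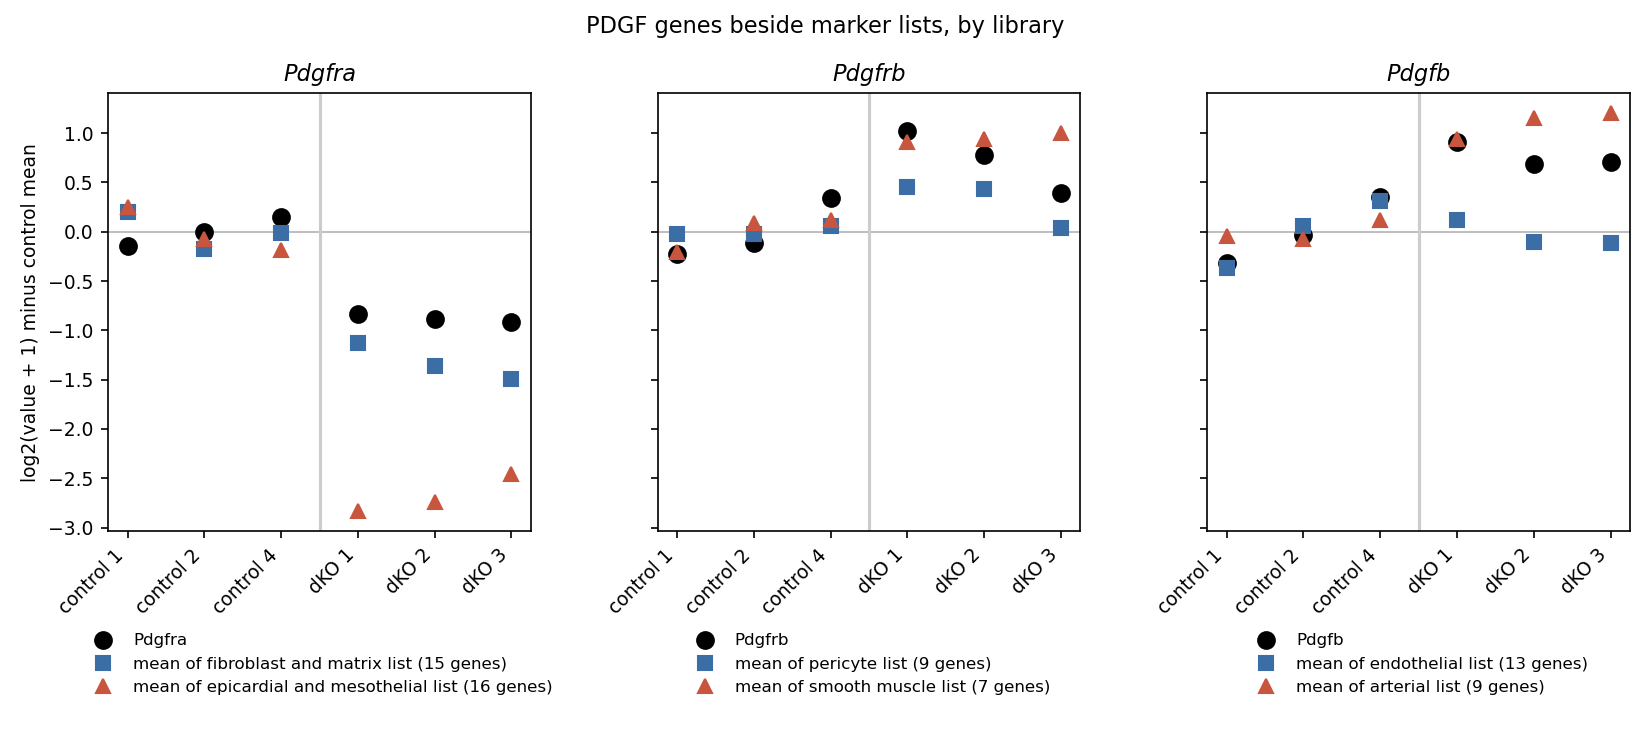
Log2(value + 1) minus its control mean (y axis) in each library for Pdgfra, Pdgfrb and Pdgfb (black circles) and for the mean of the marker lists of cells known to carry them (coloured squares and triangles). Pdgfra lies below 0 in all dKO libraries with its 2 lists. Pdgfb lies above 0 in all 3, as does the arterial list (0.94 to 1.20), while the endothelial list lies between -0.12 and 0.12.

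Among the genes that handle PDGF outside the cell, 4 of 7 processing proteases fell and 0 rose (median -0.76), beside 12.2% and 9.81% of all genes. The proprotein convertases Pcsk5 (94.7 ± 2.83 to 9.76 ± 1.43, SD, n = 3) and Pcsk6 (27.0 to 14.3) fell, whereas Furin, which cuts the A and B chains, was at 28.7 and 40.0 and did not pass (limma adjusted p = 0.0611). The plasminogen activator gene Plat, whose product releases active PDGF-C, fell from 182 ± 7.72 to 87.9 ± 17.6, and Plau, whose product releases active PDGF-D, from 40.4 ± 5.50 to 23.6 ± 4.44. Pcsk5 spanned 92.0 to 97.6 in controls and 8.17 to 10.9 in dKO libraries, without overlap and with a log2 change of -3.16 (limma adjusted p = 2.12e-06).

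Of 10 genes for binding partners and co-receptors 3 fell and 1 rose (median -0.35), beside 12.2% and 9.81% of all genes. Sparc, a matrix protein that binds the B chain, fell from 7492 to 3086, the beta receptor partner Lrp1 from 95.2 to 49.5 and the scaffold Slc9a3r1 from 56.3 to 11.2. Hspg2, which encodes the heparan sulphate proteoglycan perlecan, rose from 151 to 249. The co-receptor Nrp1 was at 62.1 to 151 in dKO libraries and 65.0 to 113 in controls and did not pass.

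Inside the cell, 4 of 32 receptor-proximal signalling genes rose, 2 fell and 26 did not pass (median -0.03), a share of calls no higher than the 22.0% of all genes. Those that fell included the Src-family kinase gene Yes1 (83.3 to 58.6), and those that rose included the docking protein gene Gab1 (102 to 143). Of 16 negative regulators 4 fell and 0 rose (median -0.19), beside 12.2% and 9.81% of all genes (22.0% in either direction). The 4 were Spry1 (61.9 to 28.6), Spry2 (90.6 to 46.8) and Spred1 (113 to 77.9), inhibitors of receptor tyrosine kinase signalling, and the cytokine signalling suppressor Socs3 (7.59 to 3.19). Spry1 shares 24.4% of its exonic bases with another gene.

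Of 11 growth factor-induced genes 2 rose and 0 fell (median 0.20), beside 9.81% and 12.2% of all genes. The 2 were the transcription factor gene Srf (32.3 to 66.2) and Ier3 (12.6 to 20.5). The summed level of this list was 184 to 202 in controls, 211 and 214 in dKO 3 and dKO 2, and 358 in dKO 1. Of 6 other class III receptor kinase genes and their ligands 4 fell and 0 rose (median -0.88), beside 12.2% and 9.81% of all genes. Those that fell included the macrophage growth factor gene Csf1 (65.9 to 21.3), its receptor gene Csf1r (114 to 53.2) and the Kit ligand gene Kitl (138 to 87.0). Il34 (1.92 to 0.351), another ligand of the Csf1 receptor, also fell. Kit was at 39.0 and 51.7 and did not pass. Over all pathway lists 7 of 82 genes rose and 17 fell (median -0.06), beside 9.81% and 12.2% of all genes, and nothing particular to the pathway is read from these counts.

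The gene whose pattern was nearest to that of Pdgfra over the 6 libraries was Tek, the angiopoietin receptor gene of endothelial cells, among 10924 genes with a mean of at least 5. Likeness was measured as the root mean square difference of log2(value + 1) after centring each gene, which was 0.024 for Tek and 0.061 for Wipf1. Tek stood at 196 in control 1, 212 in control 2 and 235 in control 4, and at 116 in dKO 1, 111 in dKO 2 and 112 in dKO 3. For Pdgfb the nearest were Adarb1 (0.041) and Pgap3 (0.045), for Pdgfd Tnfrsf23 (0.088) and Col6a6 (0.107), and for Pdgfrb Cyhr1 (0.091) and Ushbp1 (0.097). For Pdgfa they were Znhit6 (0.046) and Tmem218 (0.050). Pdgfc had no near neighbour, with Greb1l (0.230) and Cacna1g (0.251) the closest, and Greb1l was likewise highest in control 1 (21.3 against 4.18 and 6.06 in control 2 and 4).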

How the data were processed

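Per the submitters' processing notes, the authors removed adapters with cutadapt and quantified transcripts with RSEM 1.3.1 on GRCm38. Their annotation release and gene filter are not stated there. The deposited signal is linear. Taken as reads plus 0.5, per 1000000 of a scaled library size, each of its 87294 values came out whole to within 0.01 reads, and the values are called normalised read counts. Genes at 1 or more in 3 libraries were kept (all 14549). The genotypes were tested with limma 3.58.1 (R 4.3.3, variance trend) on log2(value + 1), where changes of low genes come out too small. P-values are two-sided, and the script was tested on simulated data. There it recovered 58 of 100 genes changed 2-fold and 97 of 100 changed 4-fold, so many changes of 2-fold or less can be missed. edgeR 4.0.16 and DESeq2 1.42.0 were run on the recovered reads. Coordinates, exon lengths and exon overlaps came from GENCODE (GRCm38), where 14530 identifiers were found.

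The members and gene lists were chosen with earlier results of these data known. Named genes were the members, Meis1 and Meis2, up to 4 genes of smallest p per list (or the 2 of highest level where none passed), and the 2 nearest in pattern to each member. Furin, Nrp1, Kit, Postn, Gja5, Hoxa5, Ddx3y and Xist were named after their values were seen. So were Tagln, Smtn, Myh11, Efnb2, Jag1, Sox17 and Gja4. Some genes that the rule names are not reported here. Further lists gave lower lymphatic (6 of 7), mast cell (5 of 5) and macrophage genes (4 of 11) by limma, beside 12.2% of all genes. They gave 0 calls among 6 erythroid and 2 Schwann and neuronal genes, beside 22.0% of all genes in either direction.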

Additional observations from a re-analysis of the deposited data

How the results depend on the processing

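Direction was kept by Pdgfra, Pdgfd, Pdgfrb and Pdgfc in all 21 alternatives, and the calls of Pdgfra and Pdgfd held in all 6 fits that each left out 1 library (log2 change -0.95 to -0.80 and -1.29 to -1.01), with quantile normalization, with scaling to the plain total, with edgeR and with DESeq2. Over such fits Pdgfb ran from 0.61 to 0.94, Pdgfrb from 0.58 to 0.90 and Pdgfc from 0.14 to 1.18, and 898 to 1262 genes rose. Without control 1 and dKO 1 together the changes were 0.54 for Pdgfb, 0.47 for Pdgfrb, 1.05 for Pdgfc and -0.021 for Pdgfa, and with no variance trend Pdgfrb was at 0.73 without a call. Meis1, which did not pass, ran from -0.32 to 0.045 without 1 library, and turned to 0.13 without control 1 and dKO 1 together, to 0.97 with the cardiomyocyte score and to 0.82 with the fibroblast score. Numbers 1 and 2 occur in both groups, but nothing says that they pair the pools, whose deviations correlated at -0.18 and -0.20 over genes. With the replicate block, which leaves 1 residual degree of freedom, 580 genes rose and 780 fell, and Pdgfb (0.97) and Pdgfra (-0.78) lost the call. With the cardiomyocyte score as a covariate 58 genes rose and 196 fell. Pdgfra (-1.24) kept the call there, and Pdgfd (-0.64), Pdgfrb (0.046, SE 0.40) and Pdgfb (-0.034, SE 0.39) lost it. Pdgfa (-0.33, SE 0.46) and Pdgfc (3.03) were without a call. The score, as log2 minus its control mean, was -0.72 to 0.40 in controls and 1.585 to 1.83 in dKO libraries. Genotype and score can therefore hardly be told apart in that fit. The cause was not tested. With a score for the sex of the pools (Ddx3y minus Xist) as a covariate, Pdgfra (-0.92) and Pdgfd (-1.14) kept the call. So did Pdgfb (0.68, limma adjusted p = 0.0368) and Pdgfrb (0.58, limma adjusted p = 0.0193). Chosen after seeing the data, the pericyte score as a covariate gave 163 and 541 genes, with Pdgfb at 0.62, Pdgfrb at 0.27 and Pdgfd at -1.19 below the threshold. The fibroblast score gave 0 and 0, with Pdgfb at 0.58, Pdgfd at -1.02, Pdgfra at -1.01, Pdgfrb at 1.53 and Pdgfc at 4.89. The ratio of Pdgfra to Pdgfrb was 2.88 in controls and 0.946 in dKO libraries with the longest coding transcript, and 3.63 and 1.19 with no length correction. The ratio of Pdgfb to Pdgfd was 0.577 and 2.24, and 0.542 and 2.11, on those scales.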

Other observations

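Pdgfrl, a gene named for its likeness to the PDGF receptors whose product lacks the kinase part, is no ligand or receptor of the family and was named after its values were seen. Its normalised read count was 4.85 to 10 in controls, and 32.4 in dKO 1, 23.9 in dKO 2 and 29.3 in dKO 3. All dKO libraries were above all controls, with means of 7.47 ± 2.58 and 28.6 ± 4.29 (SD, n = 3), a log2 change of 1.84 (SE 0.25, limma adjusted p = 7.91e-04).

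Egr1 and Fos, immediate early genes also named after their values were seen, were highest in dKO 1. So were Jun, Fosb, Ier2, Srf and Mkl1 of the same list, while Junb, Ier3, Myc and Mkl2 were not. Egr1 was at 74.3 in dKO 1 against 15.1 and 21.9 in dKO 2 and 3, and at 18.8, 19.2 and 20.2 in the controls. Fos was at 28.7 in dKO 1 and at 1.66 and 2.85 in dKO 2 and 3, against 5.62 to 11.6 in the controls. Neither passed the test (limma adjusted p = 0.400 and 0.771).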
